A study of Mus musculus with 6 samples.

Results

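Immediate-early genes are switched on within minutes of a stimulus without new protein synthesis, and activity-dependent genes follow synaptic activity in neurons. The 36 genes described here were chosen by symbol, and all 36 were found among the 31253 genes counted in every library. They comprise the AP-1 subunits and their partners (Fos, Fosb, Fosl2, Jun, Junb, Jund, Atf3, Maff), the EGR zinc-finger factors (Egr1, Egr2, Egr3, Egr4), the NR4A orphan nuclear receptors (Nr4a1, Nr4a2, Nr4a3), the Krüppel-like factors Klf2, Klf4 and Klf6, and 8 further early regulators (Ier2, Ier3, Ier5, Csrnp1, Npas4, Btg2, Gadd45b, Gadd45g). The feedback inhibitors Dusp1, Dusp5, Dusp6, Dusp10, Zfp36 and Sik1 and the synaptic or secreted effectors Arc, Homer1, Nptx2 and Bdnf complete the list.

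The study measured single-cell RNA in the hippocampus of old mice with 6 droplet libraries. The 3 Control libraries came from mice kept in air, and the 3 Sevoflurane libraries from mice given the inhaled anaesthetic sevoflurane at 2% for 6 h, with tissue taken 24 h after exposure. Strain and genotype were not given in the labels used here, and the labels number the libraries without saying that each is a separate animal. The p-values thus reflect differences among libraries, which may be partly technical. All suspensions were digested with collagenase for 60 min at 37 °C, frozen and thawed before capture, and warm enzymatic digestion is itself known to induce early genes. The comparison asks which early genes differed from air controls a day after the anaesthetic, and earlier times were not measured.

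As background, calcium entry and growth factor receptors activate kinases that phosphorylate CREB and the partners of SRF, factors already bound at early gene promoters, and the proteins made from the first wave, such as AP-1 and EGR factors, then act on later genes. Phosphatases of the DUSP family and the kinase SIK1 end the response by acting on the same pathways. In the hippocampus these genes are the usual markers of recently active neurons, and in vessels KLF2 and KLF4 are known as factors induced by blood flow.

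Library depth ran from 54426522 to 70741809 unique molecular identifiers (UMIs, each a captured transcript), and 46876 cells were analysed. Clusters were named from marker genes, so "neurons" and the other class names stand for neuron-like clusters and so on. Sevoflurane 1 stood apart, because it held Xist, transcribed from an inactive X, at 1397 CPM (UMI counts of a gene scaled to the usual common total) in all cells and the Y-linked Eif2s3y at 0, while the other libraries held Eif2s3y and little Xist. Results are therefore also given without it. Counts were summed per library and cell class and tested with edgeR's quasi-likelihood test, a gene was called at a Benjamini-Hochberg adjusted p below 0.05 over all genes of a class, and log2 fold changes are sevoflurane over control with their standard error (SE). In summed counts, fewer expressing cells and less RNA per cell cannot be told apart.

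Across the 7 cell classes and 6 neuron subtypes that had at least 20 cells in every library, early genes were called higher after sevoflurane in ependymal cells, endothelial cells, neurons and astrocytes, and no member was called lower in any of the 13, where 0.18% to 2.58% of all genes were. Ependymal cells, the ciliated lining of the ventricles, had the largest change, in the receptor Nr4a3. Endothelial cells followed with 6 called members, led by Maff and Nr4a1, where 1.15% of all genes were called higher. Neurons had 2, Maff and Sik1 (1.53% of all genes), and in astrocytes Sik1 alone was called (0.802% of all genes). The fold change was above 0 in every class that could be tested for Junb (13 of 13), Homer1 (13 of 13), Btg2 (12 of 12), Sik1 (10 of 10), Dusp1 (10 of 10), Gadd45g (10 of 10), Fos (9 of 9) and Gadd45b (9 of 9). For Jun and for Klf6 it was above 0 in 3 of 13 classes each. The neuron subtypes are parts of the neuron class, so these 13 are not independent.

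**Figure D1:**
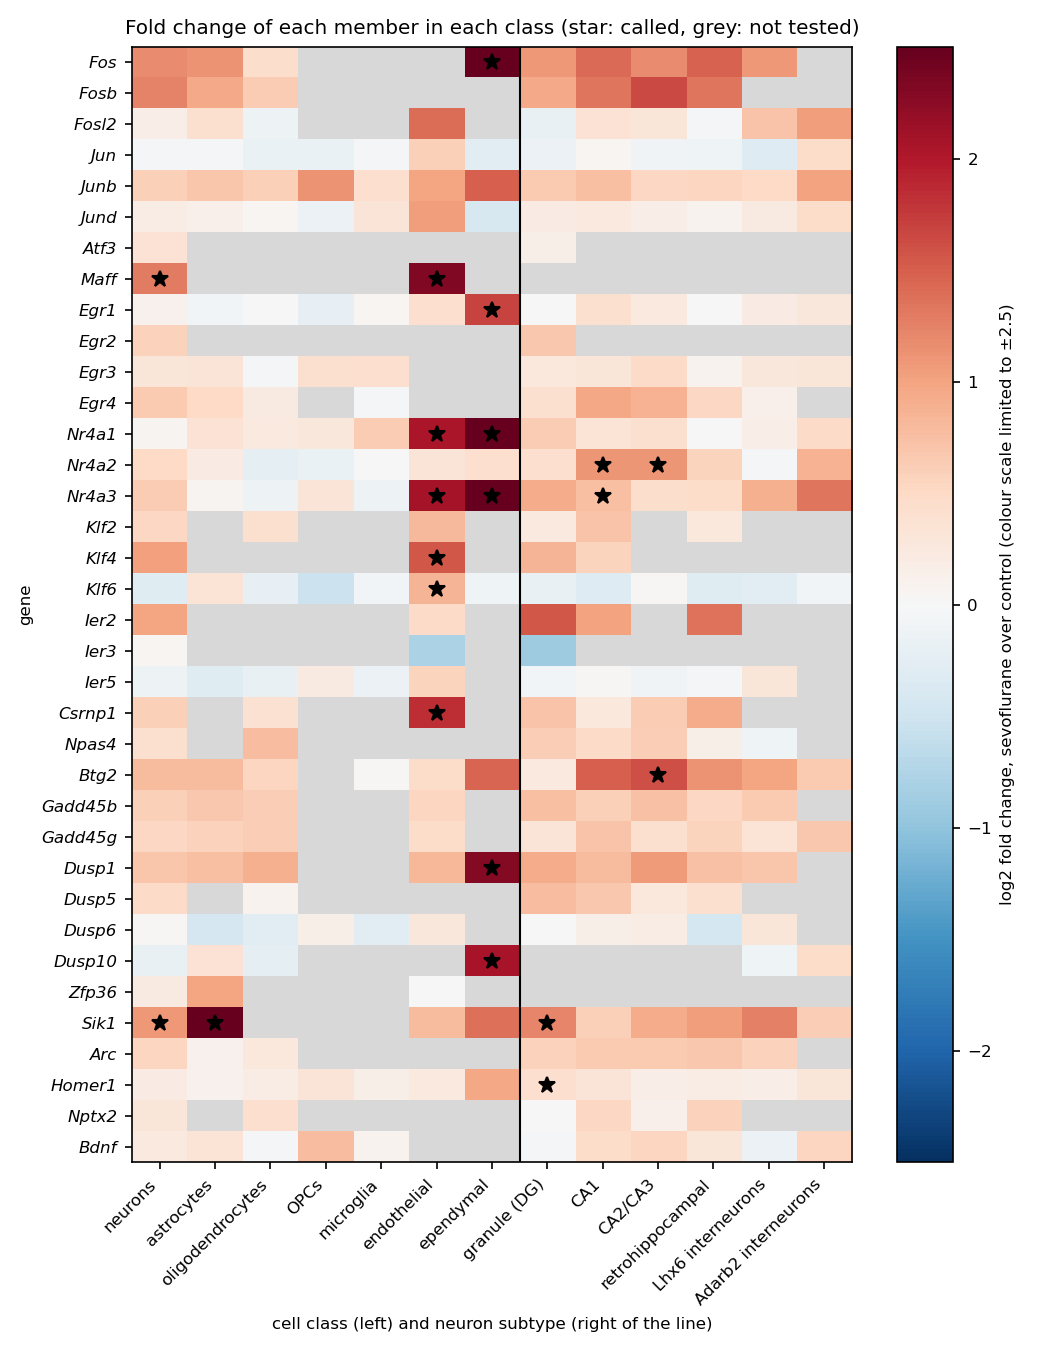
Log2 fold change of each of the 36 genes (rows) in the 7 cell classes and, right of the line, the 6 neuron subtypes (columns); red is higher and blue lower after sevoflurane, a star marks an adjusted p below 0.05 and grey a gene not tested. Stars are most frequent in the endothelial and ependymal columns, with 6 each, and none stands on a blue cell.

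The start regions of 5 genes called in ependymal or endothelial cells are shown because CREB, which binds the sequence TGACGTCA or its core TGACG, is a known regulator of several of them. The sequences are RefSeq promoters of build GRCm38.p6, read 5′ to 3′ on the strand of the gene, with matches to TGACG or its reverse complement CGTCA in capitals, and TGACGTCA wholly in capitals. They lie at chr4:48045055-48045152 on the plus strand for Nr4a3, chr12:85473640-85473889 on the plus strand for Fos, chr15:79347270-79347519 on the plus strand for Maff, chr15:101266596-101266845 on the plus strand for Nr4a1 and chr17:26508520-26508722 on the minus strand for Dusp1. Each stretch ends before the first annotated exon that it would reach. The 5 genes do not stand for all called members of these classes. Klf4 and Csrnp1, also called there, held TGACG too, while Dusp10 and Klf6 had no match and Egr1 had no promoter entry. For Maff only the start site with the complete TGACGTCA is shown.
Nr4a3: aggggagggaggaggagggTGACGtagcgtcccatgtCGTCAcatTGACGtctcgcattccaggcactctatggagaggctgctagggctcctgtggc
Fos: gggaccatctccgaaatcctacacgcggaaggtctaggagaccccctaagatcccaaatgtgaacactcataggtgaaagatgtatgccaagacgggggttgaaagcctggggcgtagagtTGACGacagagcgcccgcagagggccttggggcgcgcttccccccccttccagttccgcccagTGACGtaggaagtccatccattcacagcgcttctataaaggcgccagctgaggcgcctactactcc
Maff: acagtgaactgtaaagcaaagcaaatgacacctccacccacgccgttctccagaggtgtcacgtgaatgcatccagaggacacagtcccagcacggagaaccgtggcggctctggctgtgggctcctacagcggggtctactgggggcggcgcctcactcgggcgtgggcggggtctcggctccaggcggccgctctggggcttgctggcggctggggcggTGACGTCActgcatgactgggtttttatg
Nr4a1: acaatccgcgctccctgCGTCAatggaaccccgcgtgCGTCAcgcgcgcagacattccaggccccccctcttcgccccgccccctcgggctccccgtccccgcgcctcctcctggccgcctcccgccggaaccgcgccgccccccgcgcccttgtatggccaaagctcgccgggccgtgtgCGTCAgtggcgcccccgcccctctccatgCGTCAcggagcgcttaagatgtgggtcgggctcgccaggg
Dusp1: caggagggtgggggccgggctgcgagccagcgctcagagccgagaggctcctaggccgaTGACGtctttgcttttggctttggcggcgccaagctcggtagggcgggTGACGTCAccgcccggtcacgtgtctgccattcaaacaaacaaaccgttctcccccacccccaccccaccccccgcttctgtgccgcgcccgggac

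RefSeq promoters were found for 30 of the 36 genes, with 46 start sites, and Egr1, Egr3, Ier2, Arc, Nptx2 and Sik1 had no entry. In the 250 bases before the start, on either strand, TGACG occurred in 25 of the 46 member promoters (54.3%) and in 17.8% of the 32851 promoters of all genes. The complete TGACGTCA, which contains TGACG, was found in 3 member promoters (6.52%), those of Btg2, Dusp1 and Maff, against 1.55% of all promoters. The CArG box, bound by SRF, was matched in 6 member promoters (13%) against 1.47%, 4 of the 6 being start sites of Egr2, of which 3 share 1 match, and the others those of Dusp5 and Zfp36, and the EGR motif GCGNGGGCG in 10 (21.7%) against 4.7%. The AP-1 motif TGANTCA stood in 2 member promoters (4.35%) against 6.75% of all, and AAAGGTCA, to which NR4A receptors bind as monomers, in 0 against 1.34%. A match describes these letters only and says nothing of binding in these cells.

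Ependymal cells were few, 47 to 82 per Control library and 89 to 148 per Sevoflurane library, yet 6 of the 14 members that passed the low-count filter were called higher, where 0.387% of all genes tested in the class were called higher. Fos, Nr4a1, Dusp1 and Junb had 1 to 7 UMIs in each Control library and passed the filter through their high Sevoflurane libraries. The counts and the median given here thus describe the members that passed, and are not independent of the group difference. The median log2 fold change of the tested members was 1.47, and that of all genes tested was 0.00. At an unadjusted p below 0.05, 10 members were higher and 0 lower, against 9.63% of all genes in either direction, and in 10 all Sevoflurane libraries were above all controls, as in 7.07% of all genes. The summed level of all 36 genes was 626 to 670.4 CPM in controls and 1274 to 2094 CPM after sevoflurane.

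Nr4a3, an orphan receptor that acts as a constitutive transcription factor, read 36.6, 35.2 and 15.3 CPM in Control 1 to 3 and 468, 248 and 237 CPM in Sevoflurane 1 to 3. The groups did not overlap, and Sevoflurane 1 was the highest library. The log2 fold change was 3.35 (SE 0.33, adjusted p = 1.07e-06). After each cell was thinned to 1000 UMIs, 2.26% of control and 17.7% of sevoflurane ependymal cells held an Nr4a3 UMI (exact two-sided permutation p = 0.1, the smallest that 3 against 3 libraries allow). Its relative Nr4a1 read 3.66, 12.8 and 15.3 CPM in controls and 118, 29.7 and 50.7 CPM after sevoflurane (log2 fold change 2.59, SE 0.57, adjusted p = 0.0288). The control values rest on few molecules, 10, 11 and 3 UMIs for Nr4a3 and 1, 4 and 3 for Nr4a1.

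Among AP-1 and EGR genes, Fos, the partner of JUN proteins, read 7.33, 3.20 and 15.3 CPM in controls and 120.5, 40.3 and 31.0 CPM after sevoflurane. The control values of Fos rest on 2, 1 and 3 UMIs, so the size of its fold change is uncertain. All 3 Sevoflurane libraries lay above the controls, with a log2 fold change of 2.95 (SE 0.62, adjusted p = 0.0192). Egr1, a zinc-finger activator, read 47.6, 32.0 and 35.8 CPM against 158, 113 and 107 CPM (log2 fold change 1.69, SE 0.30, adjusted p = 0.00376). Here the 3 Sevoflurane libraries were close to each other and all above the controls. Jun and Jund had log2 fold changes of -0.27 (adjusted p = 0.848) and -0.40 (adjusted p = 0.694), with overlapping groups.

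Of the 4 MAP kinase phosphatases, Dusp10 and Dusp1 rose in ependymal cells, and Dusp5 and Dusp6 were not tested there. Dusp10, which removes phosphate from the stress kinases JNK and p38, read 33.0, 60.8 and 30.7 CPM in controls and 235, 108 and 206 CPM after sevoflurane (log2 fold change 2.06, SE 0.33, adjusted p = 0.000815). Dusp1, an early-induced phosphatase of all main MAP kinases, read 18.3, 19.2 and 20.5 CPM in controls and 184, 55.2 and 56.3 CPM after sevoflurane (log2 fold change 2.30, SE 0.48, adjusted p = 0.0192). The control values of Dusp1 rest on 5, 6 and 4 UMIs. The groups were apart for both genes, and Sevoflurane 1 was the highest library for both. Sik1 (1.38, adjusted p = 0.105), Junb (1.49, adjusted p = 0.146), Btg2 (1.45, adjusted p = 0.169) and Homer1 (log2 fold change 0.97, adjusted p = 0.206) also had all 3 Sevoflurane libraries above the controls without passing the test. With classes assigned cell by cell only Nr4a3 was called, and the log2 fold change of Nr4a1 was 1.33 (adjusted p = 0.241). Leaving out Control 1 or Sevoflurane 1 left 3 called members and leaving out Control 2 left 2, while it stayed 6 with any other library left out. Nr4a3 was called under every edgeR alternative run. The ependymal markers summed to 10700 to 12690 CPM in controls and 10140 to 12570 CPM after sevoflurane, and the 10 choroid plexus markers, of which 2 to 3 were at 0, to 366 to 1061 CPM and 277 to 344 CPM. The 29 dissociation and heat shock genes summed to 2329 to 2803 CPM and 2220 to 3386 CPM. Of the 13 tested, 11 had a fold above 0 and 2 below, with a median log2 fold change of 0.16 against 0.00 for all genes. The part of either list in the result was not tested.

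Endothelial cells numbered 69 to 159 per Control library and 42 to 168 per Sevoflurane library, the fewest in Sevoflurane 1. Of 24 members tested, 6 were called higher, against 1.15% of all genes tested there, and the median log2 fold change was 0.68 for the members and 0.00 for all genes. Here too, passing the low-count filter may itself depend on a high level in 1 group. At an unadjusted p below 0.05, 13 were higher and 1 lower (13% of all genes in either direction), and in 12 the Sevoflurane libraries all exceeded the controls (9.19% of all genes). Maff, a small MAF protein that pairs with other leucine-zipper factors, read 33.0, 20.9 and 18.7 CPM in controls and 226, 109 and 90.7 CPM after sevoflurane. Each Sevoflurane library exceeded every control (log2 fold change 2.32, SE 0.36, adjusted p = 0.0034), and Maff was called under every edgeR alternative run.

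Of the 3 NR4A receptors, Nr4a1 and Nr4a3 rose in endothelial cells as well. Nr4a1 read 15, 18.3 and 13.3 CPM in controls and 92.3, 67.0 and 50.9 CPM after sevoflurane (log2 fold change 2.05, SE 0.35, adjusted p = 0.00473). Nr4a3 read 9, 10.5 and 5.34 CPM against 35.9, 53.1 and 24.7 CPM (log2 fold change 2.08, SE 0.47, adjusted p = 0.0314). Neither gene overlapped between groups. Nr4a2 did, with a log2 fold change of 0.32 (adjusted p = 0.763).

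Klf4, known in endothelium as a flow-induced and anti-inflammatory factor, read 192, 392 and 262 CPM in controls and 1312, 617 and 594 CPM after sevoflurane (log2 fold change 1.56, SE 0.30, adjusted p = 0.0125). Klf6 read 167, 152 and 155 CPM against 374, 275 and 229.5 CPM (log2 fold change 0.85, SE 0.21, adjusted p = 0.0465). Both genes were highest in Sevoflurane 1 and had no overlap between groups. Klf2, the closest relative of Klf4 in function, was at 590 to 954 CPM in controls and 793 to 1907 CPM after sevoflurane, with overlapping groups (log2 fold change 0.81, adjusted p = 0.155). Csrnp1, a nuclear protein first found as an AXIN1-induced gene, read 18.0, 7.84 and 8.01 CPM in controls and 61.5, 25.4 and 53.6 CPM after sevoflurane (log2 fold change 1.85, SE 0.44, adjusted p = 0.0379).

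The AP-1 subunits Jund and Junb came next. Jund read 216, 316 and 200.2 CPM in controls and 789, 360.5 and 397 CPM after sevoflurane (log2 fold change 1.04, SE 0.27, adjusted p = 0.0599). Junb read 40.5, 60.1 and 61.4 CPM against 149, 94.7 and 89.3 CPM (log2 fold change 0.99, SE 0.27, adjusted p = 0.0725). All 3 Sevoflurane libraries were above the controls for both, and neither passed the test. Ier3, an early survival factor, had the lowest fold of the class, with 122, 99.3 and 85.4 CPM in controls and 128, 37.0 and 46.7 CPM after sevoflurane (log2 fold change -0.80, SE 0.34, adjusted p = 0.311).

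With classes assigned cell by cell only Maff was called in endothelial cells, and the log2 fold change of Klf6 was 0.39 (adjusted p = 0.351). With Control 1 or Control 3 left out 2 endothelial members were called, with Sevoflurane 1 or Sevoflurane 2 left out 4, with Control 2 left out 6 and with Sevoflurane 3 left out 8. The 10 markers of mural cells, which wrap the same vessels, at most 1 of them at 0 in a library, summed to 5083 to 6747 CPM in controls and 4704 to 5114 CPM after sevoflurane, the 5 haemoglobin and red cell genes to 1029 to 6525 CPM and 3140 to 4874 CPM, and the 10 choroid plexus markers, 2 to 7 of them at 0, to 209 to 816 CPM and 55.4 to 86.9 CPM. The dissociation and heat shock genes summed to 3875 to 5267 CPM and 4150 to 5253 CPM. Of the 15 tested, 8 had a fold above 0 and 7 below, with a median log2 fold change of 0.09 against 0.00 for all genes. The part of these lists in the result was not tested.

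**Figure D2:**
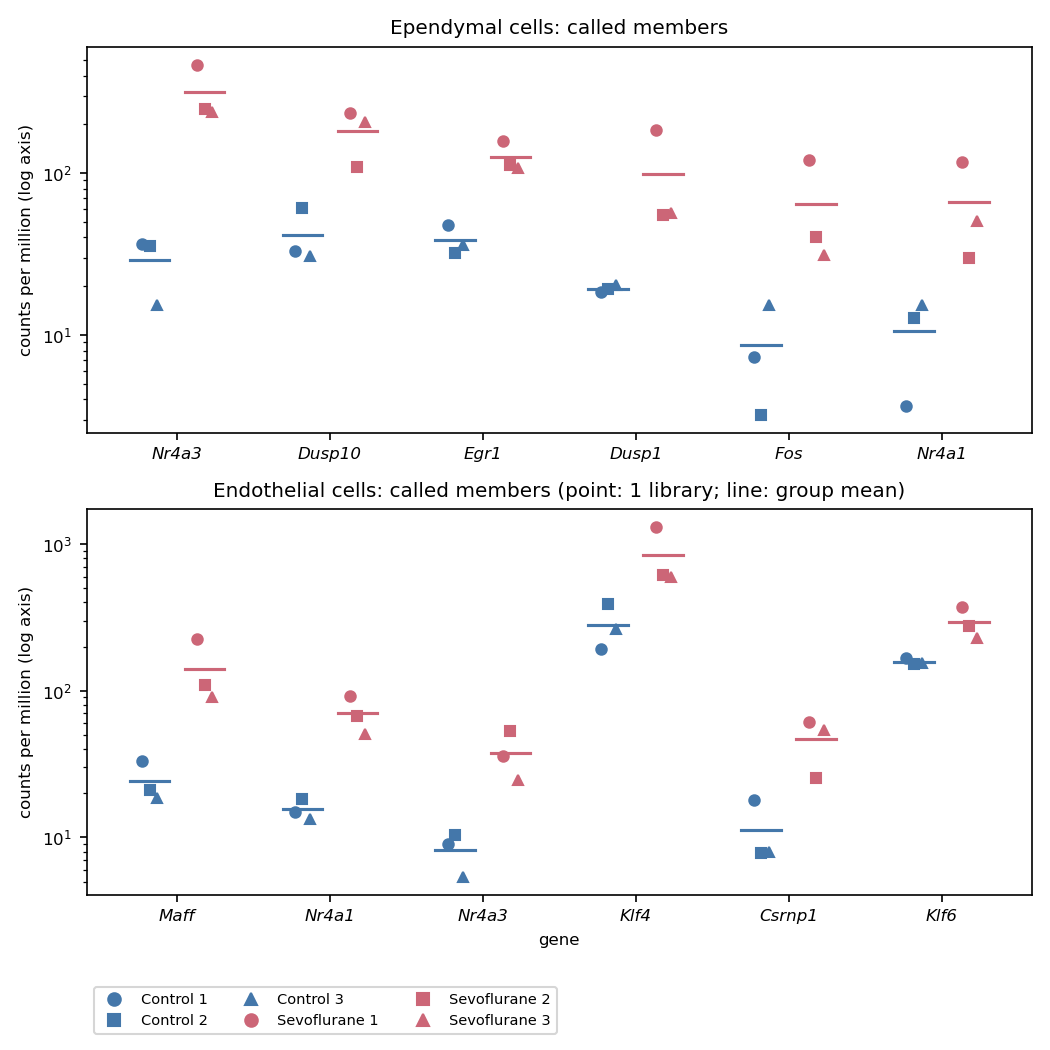
CPM (log axis) of the 6 called members in ependymal cells (top) and endothelial cells (bottom); each point is 1 library, blue Control and red Sevoflurane, and lines are group means. All 3 red points lie above all 3 blue points for each of the 12 gene and class pairs, and Nr4a3 in ependymal cells is the widest apart, at 15.3 to 36.6 against 237 to 468.

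In neurons all 36 members were tested, and 32 had a fold change above 0, where 53.9% of all genes did. Called higher were 2 of 36, Maff and Sik1, while 1.53% of all genes tested in neurons were called higher. At an unadjusted p below 0.05, 14 members were higher and 0 lower, and 20.8% of all genes passed that level in either direction. The median log2 fold change was 0.49 for the members and 0.02 for all genes. In 10 members all Sevoflurane libraries were above all controls, which held for 13% of all genes.

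Sik1, a kinase that holds back the CREB coactivators, read 3.32, 2.71 and 3.53 CPM in controls and 7.96, 7.59 and 4.66 CPM after sevoflurane (log2 fold change 1.08, SE 0.22, adjusted p = 0.0397). Maff read 0.557, 0.301 and 0.283 CPM against 0.899, 0.974 and 0.929 CPM (log2 fold change 1.31, SE 0.28, adjusted p = 0.0481). The groups were apart for both, although Maff stayed below 1 CPM in every library.

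The members next in order of p were close to the threshold. Nr4a3 read 30.6, 27.8 and 27.9 CPM in controls and 46.7, 53.7 and 34.3 CPM after sevoflurane (log2 fold change 0.64, SE 0.15, adjusted p = 0.0542). Gadd45b, a stress-induced protein linked to DNA demethylation in neurons, read 5.09, 4.30 and 4.95 CPM against 7.98, 7.61 and 6.01 CPM (log2 fold change 0.59, SE 0.14, adjusted p = 0.0605). Sevoflurane 3 was the lowest of its group in both genes and still above the controls. Fosb, whose truncated form is known to persist after repeated activity, read 1.98, 1.49 and 1.93 CPM in controls and 6.11, 4.08 and 2.47 CPM after sevoflurane (log2 fold change 1.23, SE 0.32, adjusted p = 0.0728). Fos read 2.46, 1.83 and 3.67 CPM against 6.86, 7.21 and 3.84 CPM (log2 fold change 1.17, SE 0.31, adjusted p = 0.0796). Again Sevoflurane 3 was the nearest to the controls. Btg2, a cofactor of mRNA deadenylation that slows proliferation, read 9.87, 8.48 and 12.3 CPM in controls and 21.9, 18.1 and 12.7 CPM after sevoflurane (log2 fold change 0.78, SE 0.21, adjusted p = 0.0818). Klf4 read 0.557, 0.623 and 0.448 CPM against 0.697, 1.39 and 1.26 CPM (log2 fold change 1.03, SE 0.30, adjusted p = 0.107).

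**Figure D3:**
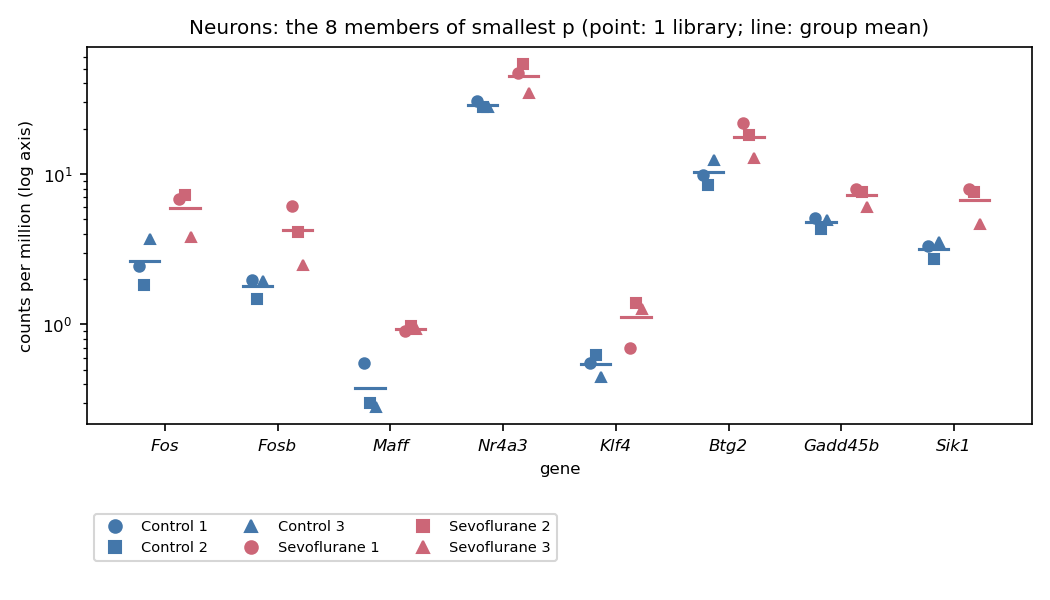
CPM (log axis) in neurons of the 8 members with the smallest p; each point is 1 library, blue Control and red Sevoflurane, and lines are group means. The red points lie above the blue ones for all 8 genes, and the triangle of Sevoflurane 3 is the lowest red point for Fos, Fosb, Nr4a3, Btg2, Gadd45b and Sik1.

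The best known activity markers did not pass the test in neurons. Arc, a postsynaptic protein that removes AMPA receptors, read 8.96, 6.75 and 14.0 CPM in controls and 18.0, 14.8 and 10.2 CPM after sevoflurane (log2 fold change 0.53, SE 0.28, adjusted p = 0.333). Control 3 lay within the Sevoflurane values. Npas4, a neuron-specific factor induced by calcium entry, had a log2 fold change of 0.39 (SE 0.29, adjusted p = 0.48), and Egr1 one of 0.11 (SE 0.22, adjusted p = 0.818). Homer1, a scaffold of glutamate receptors whose short form is the activity-induced one, read 196, 188 and 179 CPM against 235, 232 and 183 CPM (log2 fold change 0.21, SE 0.10, adjusted p = 0.27). The counts do not separate the short from the long form. Bdnf, the secreted growth factor, was at 37.2 to 37.8 CPM in controls and 32.3 to 61.0 CPM after sevoflurane, on both sides of the controls (log2 fold change 0.24, SE 0.20, adjusted p = 0.542).

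By role, 7 of the 8 AP-1 genes had a fold above 0 in neurons with a median of 0.48, and the EGR factors 4 of 4 with 0.43. The NR4A receptors had 3 of 3 with 0.50, the KLF factors 2 of 3 with 0.52, the other early regulators 7 of 8 with 0.55, the feedback inhibitors 5 of 6 with 0.35 and the effectors 4 of 4 with 0.27. The 4 members below 0 were Jun (-0.04), Klf6 (-0.31), Ier5 (-0.13) and Dusp10 (-0.19), with adjusted p from 0.306 to 0.886. Maff was the called gene of the AP-1 group and Sik1 that of the inhibitors.

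In neurons Sevoflurane 1 was the highest library of its group for 26 members, Sevoflurane 2 for 8 and Sevoflurane 3 for 2, and Sevoflurane 3 was the lowest for 26. Shares of all genes called with a library left out are not given for the counts that follow. Without Sevoflurane 3, 7 members were called (Btg2, Nr4a3, Egr4, Fosb, Gadd45b, Fos and Sik1). The count was 1 without Sevoflurane 1, and 0 without Sevoflurane 2 or without any 1 of the 3 controls. Leaving out the 2 neuron clusters that came mostly from the Sevoflurane libraries, an alternative chosen after seeing the data, gave 0, as did classes assigned cell by cell, doublets kept and the replicate block. The dissociation and heat shock genes summed to 659 to 873 CPM in control neurons and 813 to 1155 CPM after sevoflurane. Of the 22 tested, 15 had a fold above 0, as had 53.9% of all genes, and the median log2 fold change was 0.19 against 0.02 for all genes. Of these 22, 0 were called, where 1.53% of all genes were called higher and 2.58% lower. At an unadjusted p below 0.05 in edgeR, 4 were higher and 1 lower, against 20.8% of all genes in either direction. Their part in the result was not tested.

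The share of neurons with a member UMI was compared after thinning each cell to 1000 UMIs. Fos was found in 0.291% ± 0.020 (SD, n = 3) of control neurons and 0.707% ± 0.218 (SD, n = 3) of sevoflurane neurons, and before thinning in 2.36% and 4.78% (exact two-sided permutation p = 0.1 for each). Arc was found in 0.914% ± 0.168 (SD, n = 3) and 1.60% ± 0.318 (SD, n = 3) after thinning (exact two-sided permutation p = 0.1). Free RNA can give UMIs in any droplet, and the thinned Arc share was 1.36% to 1.54% in control oligodendrocytes and 1.72% to 2.09% in control microglia, cells not known for Arc transcription. After sevoflurane it was 1.21% to 2.26% in oligodendrocytes and 0.631% to 3.72% in microglia. The neuron share thus lay below both classes in controls and within the range of both after sevoflurane, and it is not read as a difference in the number of cells expressing Arc. The part of free RNA was not tested. Median depth before thinning was 8299 to 9298 UMIs in control neurons, 2015 to 2330 in control oligodendrocytes and 1890 to 2127 in control microglia. The thinned Fos share of oligodendrocytes was 0.577% to 1.15% in controls and 0.889% to 1.54% after sevoflurane, in each group with a lowest value above the mean of the neurons, and the source of these UMIs was not tested.

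Neuron subtypes were tested one by one because their mix can differ between libraries. In dentate granule neurons 2 of 33 tested members were called higher, against 1.12% of all genes, in CA1 neurons 2 of 30 against 0.219%, and in CA2/CA3 neurons 2 of 27 against 0.0421%. In retrohippocampal neurons 0 of 29 were called (0.198% of all genes), in Lhx6 interneurons 0 of 24 (0.164%) and in Adarb2 interneurons 0 of 16 (0.0492%), while 7, 7 and 6 members were higher at an unadjusted p below 0.05 in edgeR, a level that 13.7%, 12.9% and 10.4% of all genes passed in either direction. The median log2 fold change of the members was 0.42, 0.57 and 0.47 in granule, CA1 and CA2/CA3 neurons, and 0.45, 0.30 and 0.51 in the other three.

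In granule neurons Sik1 read 2.99, 2.73 and 3.70 CPM in controls and 9.03, 8.32 and 4.52 CPM after sevoflurane (log2 fold change 1.22, SE 0.28, adjusted p = 0.0495). Homer1 read 92.5, 92.7 and 94.9 CPM against 135, 134 and 106 CPM (log2 fold change 0.42, SE 0.10, adjusted p = 0.0493). The controls of Homer1 were nearly equal, and Sevoflurane 3 was the nearest to them. Dusp1 (0.94, adjusted p = 0.0744) and Nr4a3 (log2 fold change 0.93, adjusted p = 0.0756) followed.

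In CA1 neurons 2 of the 3 NR4A receptors, Nr4a2 and Nr4a3, rose. Nr4a2, an orphan receptor tied to memory formation in the hippocampus, read 37.6, 26.6 and 31.2 CPM in controls and 77.8, 73.2 and 53.7 CPM after sevoflurane (log2 fold change 1.11, SE 0.16, adjusted p = 0.0139). Nr4a3 read 42.3, 35.5 and 37.8 CPM against 62.2, 79.7 and 52.9 CPM (log2 fold change 0.76, SE 0.14, adjusted p = 0.0402). Both had every Sevoflurane library above the controls. Nr4a1 overlapped between groups, with a log2 fold change of 0.34 (adjusted p = 0.361). Fos (1.41, adjusted p = 0.0512), Btg2 (1.49, adjusted p = 0.0571) and Egr4 (log2 fold change 0.97, adjusted p = 0.0583) were just above the threshold, and 29 of the 30 tested members had a fold above 0, all but Klf6 (-0.32), as had 52.5% of all genes.

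In CA2/CA3 neurons Btg2 read 3.51, 4.28 and 4.25 CPM in controls and 13.6, 15.3 and 7.99 CPM after sevoflurane (log2 fold change 1.62, SE 0.26, adjusted p = 0.0472). Nr4a2 read 14.8, 17.9 and 17.9 CPM against 44.4, 38.0 and 26.4 CPM (log2 fold change 1.10, SE 0.18, adjusted p = 0.0472). The groups were apart for both genes. Fosb (1.65, adjusted p = 0.0606) and Nr4a3 (log2 fold change 0.44, adjusted p = 0.0778) came next.

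All 6 of these subtype calls depended on single libraries. In granule neurons 0 members were called when any 1 control or Sevoflurane 2 was left out, 1 when Sevoflurane 1 was and 5 when Sevoflurane 3 was. In CA1 neurons the count was 1 with Control 1 or Sevoflurane 1 left out, 0 with Control 2, Control 3 or Sevoflurane 2 left out and 6 with Sevoflurane 3 left out. In CA2/CA3 neurons they were 0 for each of the first 5 and 2 without Sevoflurane 3, and retrohippocampal neurons had 1 without Sevoflurane 3.

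Whether the response differed between subtypes was tested by the interaction of subtype and group, in a fit that kept each library as a block. Btg2 differed between granule and CA1 neurons, where 0.636% of all genes did, by 1.27 on the log2 scale (SE 0.21, adjusted p = 0.0223). In granule neurons it read 20.4, 17.8 and 27.0 CPM in controls and 31.4, 24.7 and 20.3 CPM after sevoflurane, with overlap (log2 fold change 0.23, adjusted p = 0.546), against 5.96, 2.73 and 5.5 CPM and 16.0, 14.5 and 8.07 CPM in CA1 neurons. Between granule and CA2/CA3 neurons, where 0.405% of all genes differed, Btg2 differed by 1.37 (SE 0.23, adjusted p = 0.0201). The adjusted p of the CA1 difference was 0.099 and 0.103 without Control 2 and Control 3, and that of the CA2/CA3 difference 0.067 to 0.161 without any 1 control.

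Bdnf also responded differently in CA2/CA3 and granule neurons, by 0.63 (SE 0.12, adjusted p = 0.0493, and 0.0636 to 0.231 without any 1 library other than Sevoflurane 1). It read 31.1, 34.1 and 36.3 CPM in CA2/CA3 controls and 64.4, 47.7 and 36.0 CPM after sevoflurane, and 59.1, 61.6 and 60.6 CPM in granule controls and 85.9, 44.9 and 43.9 CPM after sevoflurane. In granule neurons the Sevoflurane libraries fell on both sides of the controls (log2 fold change -0.05, adjusted p = 0.927). The CA1 minus granule difference of Bdnf was 0.54 (SE 0.11, adjusted p = 0.0531). Between CA1 and CA2/CA3 neurons 0 of 30 members differed in edgeR (0.0528% of all genes did), and 1 had an unadjusted p below 0.05 (7.48% of all genes).

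**Figure D4:**
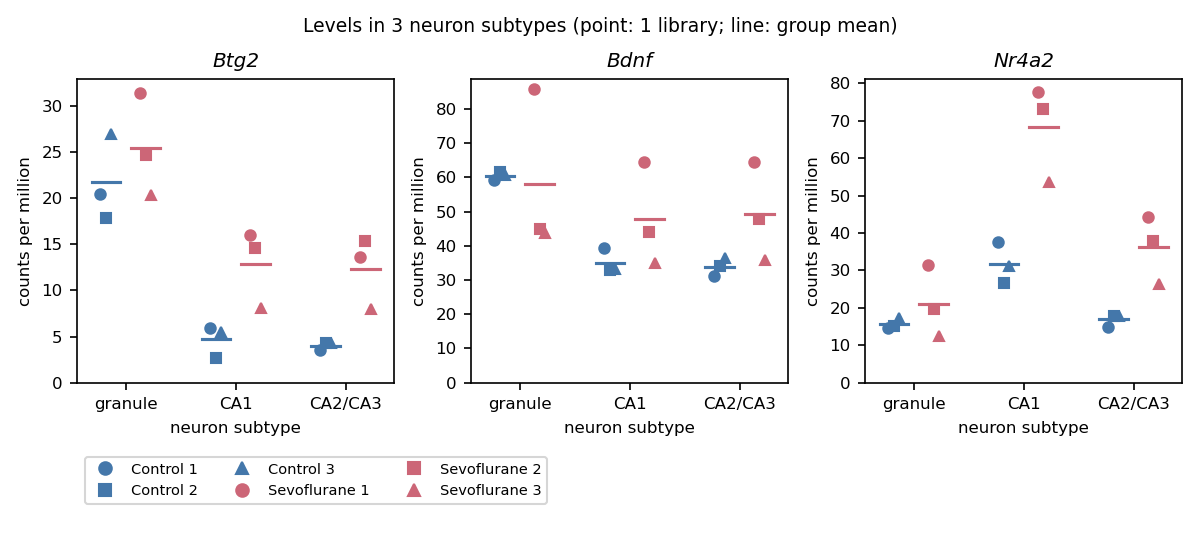
CPM of Btg2, Bdnf and Nr4a2 in granule, CA1 and CA2/CA3 neurons; each point is 1 library, blue Control and red Sevoflurane, and lines are group means. Btg2 separates the groups in CA1 and CA2/CA3 neurons and not in granule neurons, where the controls were already at 17.8 to 27.0.

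In astrocytes 1 of 25 tested members was called higher, where 0.802% of all genes were. In 6 members the Sevoflurane libraries all lay above the controls (9.26% of all genes) and in 1 below (10.4%). Sik1 read 4.02, 2.00 and 2.65 CPM in controls and 15.5, 21.7 and 14.9 CPM after sevoflurane (log2 fold change 2.59, SE 0.34, adjusted p = 0.00153). No library overlapped, and Sik1 was called under every edgeR alternative run. Its fold change in astrocytes exceeded that in neurons by 1.57 on the log2 scale (SE 0.37, adjusted p = 0.0255, in a comparison in which 1.66% of all genes differed). Without Control 2, Control 3, Sevoflurane 2 or Sevoflurane 3 the adjusted p of this difference in edgeR was 0.083 to 0.129.

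The other astrocyte members did not pass. Btg2 read 15.6, 15.6 and 19.1 CPM in controls and 39.2, 27.8 and 22.7 CPM after sevoflurane (log2 fold change 0.79, SE 0.22, adjusted p = 0.107). Junb read 23.7, 17.2 and 26.0 CPM against 37.6, 40.0 and 29.7 CPM (log2 fold change 0.68, SE 0.20, adjusted p = 0.112). Gadd45g, a stress-induced relative of Gadd45b, read 33.9, 30.8 and 40.3 CPM against 66.2, 45.2 and 47.7 CPM (log2 fold change 0.57, SE 0.18, adjusted p = 0.138). In these 3 genes the groups stood apart. Fos read 8.93, 2.80 and 5.84 CPM in controls and 12.3, 16.5 and 9.39 CPM after sevoflurane (log2 fold change 1.13, SE 0.38, adjusted p = 0.171). Dusp1 read 7.59, 7.20 and 10.6 CPM against 20.4, 11.3 and 12.5 CPM (log2 fold change 0.74, SE 0.30, adjusted p = 0.256). Egr4 (0.49, adjusted p = 0.416) and Fosb (log2 fold change 0.96, adjusted p = 0.449) had values of 10.8 to 12.5 and 1.79 to 4.77 CPM in controls and 11.3 to 20 and 2.74 to 11.4 CPM after sevoflurane. Dusp6, a phosphatase of ERK, was the member whose 3 Sevoflurane libraries, at 9.78 to 16.3 CPM, all lay below the controls at 16.4 to 21.4 CPM (log2 fold change -0.42, adjusted p = 0.473).

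Oligodendrocytes, their precursors and microglia had no called member in the main edgeR fit, which used the low-count filter. Without that filter edgeR called members in oligodendrocytes and microglia, as given under processing below. In oligodendrocytes 0 of 28 were called (0.122% of all genes), 4 were higher at an unadjusted p below 0.05 (12.9% of all genes in either direction), and the median log2 fold change was 0.21. Dusp1 read 6.68, 6.62 and 10.6 CPM in controls and 13.4, 21.8 and 8.41 CPM after sevoflurane (log2 fold change 0.88, SE 0.34, adjusted p = 0.317). Junb read 25.5, 25.4 and 32.4 CPM against 42.7, 57.0 and 26.6 CPM (log2 fold change 0.61, SE 0.24, adjusted p = 0.317). In both, Sevoflurane 3 lay among the controls. Gadd45b (0.61, adjusted p = 0.361), Btg2 (0.54, adjusted p = 0.377), Npas4 (0.76, adjusted p = 0.411), Gadd45g (0.62, adjusted p = 0.419) and Fosb (0.64, adjusted p = 0.485) had positive log2 fold changes, and Dusp10, at 77.8 to 104 CPM in controls and 67.1 to 88.4 CPM after sevoflurane, had -0.24 (adjusted p = 0.513). By edgeR's interaction test 0 of 35 members differed between neurons and oligodendrocytes (0.519% of all genes did) and 0 of 32 between astrocytes and oligodendrocytes (0.578%), with 3 and 1 at an unadjusted p below 0.05 (8.45% and 10.3% of all genes).

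In oligodendrocyte precursors 0 of 13 were called (0.0753% of all genes), with 3 higher at an unadjusted p below 0.05 (11.5% of all genes in either direction). Junb came nearest, at 14.7, 16.1 and 15.6 CPM in controls and 29.8, 43.6 and 28.0 CPM after sevoflurane (log2 fold change 1.12, SE 0.32, adjusted p = 0.103). In microglia 0 of 15 were called (0.0976% of all genes) and 0 had an unadjusted p below 0.05, which 9.52% of all genes had, with a median log2 fold change of 0.04. Nr4a1, the smallest p there, read 32.1, 21.7 and 16.3 CPM in controls and 41.2, 32.2 and 36.1 CPM after sevoflurane (log2 fold change 0.63, SE 0.32, adjusted p = 0.567). The nearest libraries of the groups, at 32.1 and 32.2 CPM, nearly met. Junb (0.42), Jund (0.33), Egr3 (0.42) and Homer1 (0.16) had positive log2 fold changes and Dusp6 (-0.27), Ier5 (-0.14) and Nr4a3 (-0.12) negative ones, with adjusted p from 0.65 to 0.957. The low-count filter left the rest of the 36 members untested in microglia. Among these, Dusp1, Fos and Nptx2 had all Sevoflurane libraries above all controls, and the others overlapped. The share of all genes with such a separation in microglia is not given here, so no weight is put on it. Dusp1 had 2, 1 and 2 UMIs in controls and 13, 8 and 11 after sevoflurane. Fos had 0, 7 and 1 UMIs in controls and 11, 8 and 7 after sevoflurane, with means of 4.81 and 15.1 CPM. Nptx2 had 1, 2 and 3 against 8, 5 and 5 UMIs, and its nearest libraries, at 8.16 and 8.59 CPM, nearly met.

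Among controls, 16 of the 36 genes were highest in endothelial cells and 10 in microglia, 4 in oligodendrocytes, 3 in ependymal cells, 2 in neurons (Nr4a1 and Homer1), 1 in astrocytes (Gadd45g) and 0 in oligodendrocyte precursors. The endothelial genes included Klf2, Klf4, Maff, Jund, Dusp1 and Sik1, and those highest in microglia included Egr1, Nr4a3, Arc and Bdnf. These levels are a description. The neuron markers summed to 6524 to 7672 CPM in control microglia, so neuronal RNA was among the counts of that class, and its part in the levels was not tested.

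**Figure D5:**
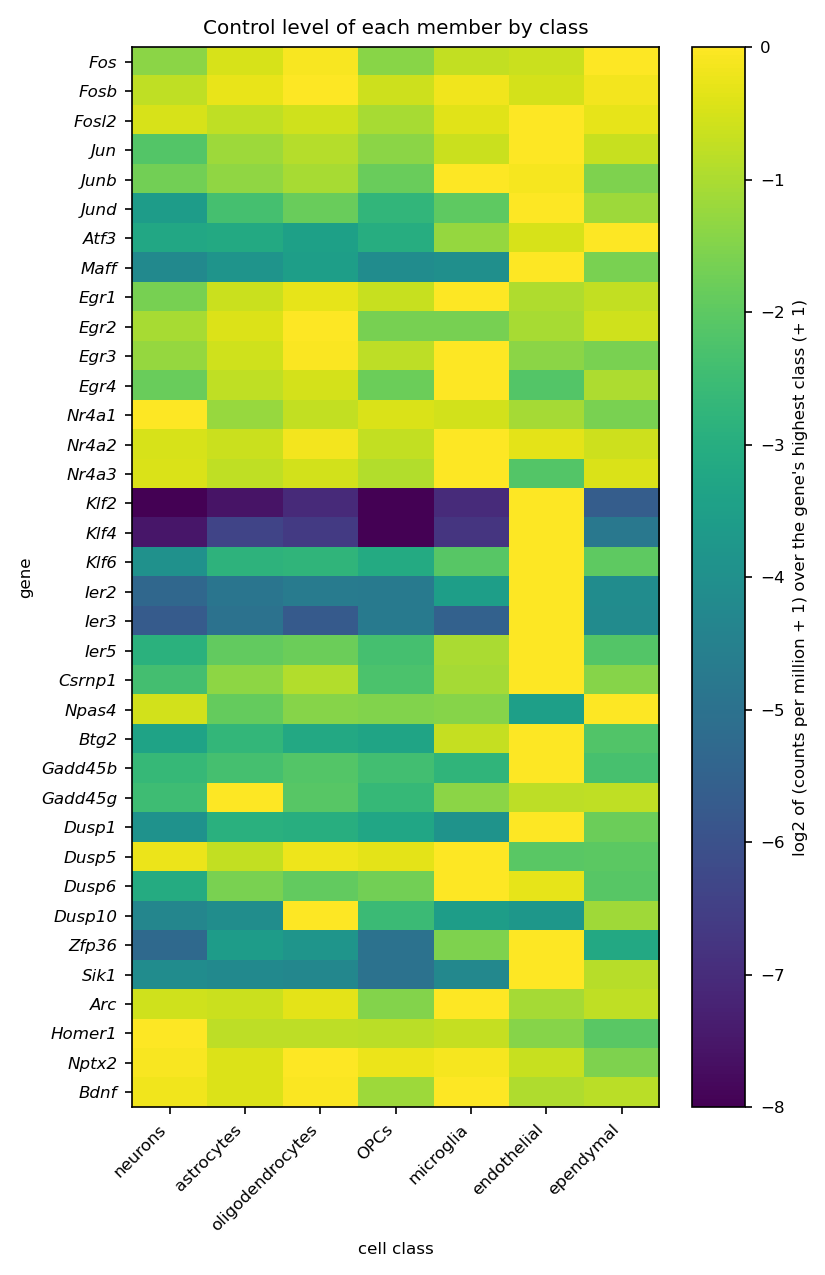
Mean level of each gene (rows) in the 7 cell classes (columns) of the control libraries, as log2 of CPM plus 1 relative to the class in which the gene is highest, so that yellow marks that class. The KLF factors and most early regulators peak in the endothelial column, as 16 genes do in all.

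Most kinases and factors upstream of these genes had lower folds in neurons. Of 40 genes tested, 28 were below 0, with a median of -0.09, and 3 fell while 0 rose. Among all genes in neurons 53.9% were above 0 and 2.58% were called lower. Camk4, the nuclear calcium-dependent kinase of CREB, read 242, 208 and 229 CPM in controls and 159, 154 and 173 CPM after sevoflurane (log2 fold change -0.48, adjusted p = 0.0188). Mapk10, which encodes the neuronal kinase JNK3, changed by -0.23 (adjusted p = 0.0408) and Rps6ka3, a kinase that phosphorylates CREB, by -0.32 (adjusted p = 0.0455). In astrocytes Camk2g fell (-0.55, adjusted p = 0.045), in oligodendrocyte precursors Mapk10 (-0.52, adjusted p = 0.0261), and in granule neurons Camk2d (-0.66, adjusted p = 0.0288) and Ppp3ca, the catalytic subunit of calcineurin (-0.25, adjusted p = 0.0435). All genes called lower made up 0.938% in astrocytes, 0.817% in oligodendrocyte precursors and 2.48% in granule neurons. The upstream list had no called gene in endothelial or ependymal cells, with 35 and 33 of its genes tested. At an unadjusted p below 0.05 in edgeR, 3 and 4 of these were higher and 1 and 1 lower. Of all genes, 13% and 9.63% passed that level in either direction.

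Other activity-induced genes, a further list of 40, had 30 of 40 folds above 0 in neurons, where 53.9% of all genes did. Of the 40, 2 rose and 1 fell, where 1.53% of all genes were called higher and 2.58% lower. Tiparp, a mono-ADP-ribosyltransferase, read 15.7, 14.4 and 14.0 CPM in controls and 31.9, 30.4 and 22.1 CPM after sevoflurane (log2 fold change 0.94, adjusted p = 0.0175). Cdkn1a, which encodes the cell cycle inhibitor p21, rose by 1.02 (adjusted p = 0.0419), and Sorcs3, a sorting receptor, fell (-0.29, adjusted p = 0.0475). In CA1 neurons Tiparp rose by 1.22 (adjusted p = 0.00975), in astrocytes Ccn1, a matricellular protein, by 1.69 (adjusted p = 0.00992), and in Adarb2 interneurons the clock gene Per1 by 1.60 (adjusted p = 0.023). In endothelial cells Cdkn1a (1.5, adjusted p = 0.00324), Fam107a (0.79, adjusted p = 0.0401) and Grasp (0.79, adjusted p = 0.0458) rose. All genes called higher made up 0.219% in CA1 neurons, 0.802% in astrocytes, 0.0492% in Adarb2 interneurons and 1.15% in endothelial cells. Of the dissociation and heat shock genes, Gem (1.03, adjusted p = 0.0373) and Txnip (1.09, adjusted p = 0.037) rose in astrocytes and none was called in the other 12 classes and subtypes. Their median log2 fold change was above 0 in every class and subtype, from 0.09 in endothelial cells to 0.34 in oligodendrocyte precursors. The median of all genes was at most 0.02.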

How the data were processed

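Single-cell RNA of 3 Control and 3 Sevoflurane libraries was measured with the 10x Genomics 3′ v3.1 kit. The values the authors deposited are unnormalised UMI counts for each gene and barcode; the matrices come from Cell Ranger 6.1.1, as stated per the file headers. The submitters' processing notes also list CASAVA 1.8 and Seurat without their roles. Genome build, annotation and strand setting are not given in the sources used here. The members and the other gene lists were chosen with earlier results of these data known.

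Barcodes numbered 7068 to 9795 per library, and no pair of libraries shared more than 0.333% of them. Cells under 500 UMIs, under 300 genes or above 20% mitochondrial UMIs were left out. Doublets were scored per library with Scrublet in scanpy 1.11.5, and the top scores were removed at 0.8% per 1000 cells. Clustering used 2000 variable genes without the members, 30 principal components, 15 neighbours and Leiden resolution 1. Of the 33 clusters, 30 were named from markers, with limits set after the clusters were seen. Counts were summed per library and class and fitted with edgeR 4.0.16 (TMM, filterByExpr, quasi-likelihood test, Benjamini-Hochberg adjustment over all genes of a class). The pipeline was tested on simulated data.

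Named with every library's value were members called in any class or subtype, and up to 8 members of smallest p in neurons, astrocytes, oligodendrocytes, microglia and endothelial cells; genes of the other lists were named if called. Alternatives were other size factors, no low-count filter, DESeq2 1.42.0, a replicate block, removal of a gene length trend, each library left out, resolution 2, doublets kept, classes assigned cell by cell, and neuron clusters in equal proportions. Fibroblasts, mural cells, choroid plexus cells, committed precursors and Cajal-Retzius cells were not tested, as at least 1 library held under 20 of their cells. Choroid plexus cells numbered 16 to 97 per Control library and 0 in every Sevoflurane library. Intervals and p-values cover the spread between libraries only.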

Additional observations from a re-analysis of the deposited data

Results flagged for a closer look

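The sevoflurane effect on 3 genes differed between classes or subtypes in 4 comparisons that passed the interaction test of edgeR, which compares the sevoflurane effect of 1 class with that of another in the same libraries. The log2 fold change of Sik1 in astrocytes exceeded that in neurons by 1.57 (adjusted p from 0.0062 to 0.129 with RLE size factors or 1 library left out, difference 1.46 to 1.86). That of Btg2 exceeded the granule neuron value by 1.27 in CA1 neurons (1.09 to 1.49 over the alternatives, adjusted p 0.0155 to 0.103) and by 1.37 in CA2/CA3 neurons (1.15 to 1.55, adjusted p 0.0192 to 0.161). The Bdnf value in CA2/CA3 neurons exceeded that in granule neurons by 0.63 (0.48 to 0.77, adjusted p 0.0158 to 0.231). The direction of all 4 was the same with RLE size factors and with each library left out. The Sik1 difference lost its call without Control 2, Control 3, Sevoflurane 2 or Sevoflurane 3, that of Btg2 in CA1 neurons without Control 2 or Control 3, that of Btg2 in CA2/CA3 neurons without any 1 control, and that of Bdnf without any 1 library other than Sevoflurane 1.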

How the results depend on the processing

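Of the 21 calls of a member in a class or subtype, none changed direction under any alternative. The share of all genes called under each alternative, or with a library left out, is not given here or above. The counts of called members under these settings therefore describe the members only, and a general shift in calls cannot be told apart from a shift in the members. Sik1 in astrocytes, Maff in endothelial cells and Nr4a3 in ependymal cells stayed called under every edgeR alternative; the other 18 were lost under at least 1, and the cause was not tested. The labels do not say whether libraries of the same number were handled together. No class had every same-numbered correlation above 0.1, but with 3 libraries per group this cannot show that they were not. A replicate block kept 11 of the 21 calls. It left 0 called members in neurons, granule and CA2/CA3 neurons, 1 in CA1 neurons and 3 in endothelial cells. With a gene length trend removed (members' median genomic span 5.69 kb, all genes 12.7 kb) the counts were 0 in neurons, granule and CA2/CA3 neurons and 1 in CA1 neurons, and with block and length trend together again 0, 0, 0 and 1. DESeq2 called 7 members in neurons and 4 in ependymal cells, and gave every tested member of both an adjusted p. Elsewhere it gave none for 1 to 28 tested members, and its calls there were not compared. Those calls were 0 in astrocytes, where 12 of 25 tested members had no adjusted p. They were also 0 in oligodendrocytes, precursors, microglia, retrohippocampal neurons and interneurons. Without the low-count filter the counts were 5 in astrocytes, 2 in oligodendrocytes, 1 in microglia, 11 in endothelial cells, 7 in CA1, 4 in CA2/CA3 and 2 in retrohippocampal neurons, and 2 and 1 in Lhx6 and Adarb2 interneurons. RLE size factors gave 0 in CA2/CA3 neurons. With doublets kept there were 0 in neurons and 1 each in granule and CA2/CA3 neurons, and with classes assigned cell by cell 0 in neurons and 1 each in endothelial and ependymal cells. Neuron clusters in equal proportions gave 1 in neurons, Nr4a3, and neither Maff nor Sik1, and leaving out the neuron clusters mostly of 1 group (chosen after seeing the data) gave 0.

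Leaving out each library in turn gave 0 to 7 called members in neurons, 1 to 1 in astrocytes, 2 to 8 in endothelial and 2 to 6 in ependymal cells, 0 to 5 in granule, 0 to 6 in CA1, 0 to 2 in CA2/CA3 and 0 to 1 in retrohippocampal neurons. Among the interactions it gave 0 to 2 members for neurons and astrocytes, 0 to 1 for neurons and oligodendrocytes, and 0 to 3 for granule neurons with CA1 and likewise with CA2/CA3 neurons. In microglia, where neither was called, the log2 fold change ran from -0.30 to 0.11 for Nr4a3 and from -0.42 to 0.076 for Ier5, above 0 only without Sevoflurane 3. Few cells limit ependymal and endothelial values, where 14 and 24 of the 36 members could be tested.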

Other observations

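Cell types that were too few to test in every library gave values only. In fibroblasts the 36 genes summed to 689, 759 and 911 CPM in Control 1 to 3 and to 1043, 788 and 943 CPM in Sevoflurane 1 to 3, from 97 to 142 control cells and 17 to 137 sevoflurane cells. In mural cells the sum was 980 and 907 CPM in Control 1 and 3 and 1177 and 982 CPM in Sevoflurane 2 and 3, and the other libraries had no cells of the class. Choroid plexus cells numbered 59, 16 and 97 in Control 1 to 3, with sums of 629, 528 and 596 CPM. No Sevoflurane library held cells of that class, and the reason was not tested.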
